A study of Mus musculus with 2 samples.

Results

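CHOP peaks were described at 35 genes for 2-oxoglutarate-dependent demethylases and hydroxylases, out of 21866 protein-coding genes with an annotated start site on chromosomes that hold peaks. The genes were chosen from this enzyme superfamily with the presence, position and fold enrichment of their peaks already known, so those values are given as a description and without a test. CHOP, the product of Ddit3, is a bZIP transcription factor of the C/EBP family induced when misfolded proteins build up in the endoplasmic reticulum. It was immunoprecipitated with its bound DNA from the livers of wild-type mice, 8 h after an intraperitoneal dose of 1 mg/kg tunicamycin, a blocker of N-glycosylation. A single library was made from the material of 3 pooled mice, beside 1 input library labelled with the same genotype and drug. There was no replicate, untreated or CHOP-deficient sample, so whether a peak depends on the drug or on CHOP was not tested, and a list of binding sites holds no expression values with which to check the liver label.

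The enzymes share a mechanism: an iron ion in the active site uses molecular oxygen and 2-oxoglutarate, an intermediate of the citric acid cycle, to hydroxylate a substrate, and succinate and carbon dioxide are released. Hydroxylation of a methyl group removes it as formaldehyde, which is how the JmjC histone demethylases, FTO and ALKBH proteins such as ALKBH5 act. The EGLN prolyl hydroxylases and HIF1AN instead modify the hypoxia-inducible factors, and the TET enzymes oxidise methylated cytosine in DNA. JARID2 and HR belong to the JmjC family by sequence, and JARID2 lacks catalytic activity and works as a partner of the Polycomb complex that methylates H3K27.

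The sequences under some of the summits are printed here, and they differ in which of the elements searched for they hold. They were read from the GRCm38.p6 assembly (mm10), 5′ to 3′. In the first pair, the stretches reach 50 bases either side of the highest promoter summit of Kdm6b and on the highest distal summit of Fto, and capitals mark a C/EBP-ATF composite element (TGATGNAA) in Kdm6b and an AP-1 site (TGANTCA) in Fto. These longer windows were chosen after the values were seen.
Kdm6b, chr11:69414503-69414603, plus strand: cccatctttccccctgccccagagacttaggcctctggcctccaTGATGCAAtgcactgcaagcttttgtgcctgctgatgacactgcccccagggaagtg
Fto, chr8:91403931-91404031, plus strand: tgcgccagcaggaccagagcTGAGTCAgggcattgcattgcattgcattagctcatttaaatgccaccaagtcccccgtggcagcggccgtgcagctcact

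Shorter stretches of 30 bases show the other kinds of site, with the matched element in capitals. The Fto entries are the composite elements at its smaller intronic peaks, that of Kdm2b is a partial C/EBP site (TTGCAAT) upstream of the gene, that of Egln2 is a GC box (GGGCGG) near the promoter summit, and that of Hif1an holds no element searched for.
Fto, chr8:91403104-91403133, minus strand: aaaagggagcaTGATGCAAggacagaaaga
Fto, chr8:91410885-91410914, plus strand: taaaaatccacTGATGTAAttcggtgccat
Kdm2b, chr5:123001085-123001114, minus strand: aatatttacaggTTGCAATgttccattgat
Egln2, chr7:27166766-27166795, minus strand: cgggcgaggcggGGGCGGggcgtcgcgggc
Hif1an, chr19:44607100-44607129, plus strand: ccattccattccattccattccattccatt

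Of the 35 genes, 20 (57.1%) had a promoter peak, meaning that its summit was no more than 1 kb from one of the gene's start sites, where the share of all protein-coding genes was 27.9%. A distal peak, whose summit lay farther away but within 50 kb and nearest to that gene, was found at 8 members (22.9%), against 18.0% of all genes, and 5 of the 8 also had a promoter peak. No peak of either kind was found at 12 members (34.3%, against 61.8% of all genes). The 20 bound promoters carried 26 peaks in all, with 1 peak at 15 genes, 2 at 4 genes and 3 at Jmjd1c. Of the 26, 5 (19.2%, against 10.5% of all promoter peaks) also lay within 1 kb of a start site of another protein-coding gene. Because the list was chosen with these peaks in view, the counts do not measure an excess.

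Peak height is the authors' fold enrichment, in which 1 is added to the reads piled up on the summit and to the background reads before the first is divided by the second. The highest promoter fold of the 20 bound members ran from 3.67 to 45.0 with a median of 9.48, and that of all 6100 bound genes had a median of 6.86. At 10 members the promoter peak reached at least 10-fold, which is 28.6% of the list, against 6.51% of all protein-coding genes. Of genes with a start site whose ratio of observed to expected CpG was at least 0.6, as at 30 members, 11.9% reached it. Kdm3b did so only at a peak mostly in sequence marked as repeat. Fold was among the values known when the members were chosen, so this is a description. These folds rest on few reads: the highest promoter peak of each bound member had between 8 and 59 reads at its summit, with a median of 19. The ranges given after folds are exact Poisson intervals at 95% on those reads with the background held fixed. They cover counting error at the summit alone.

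**Figure D1:**
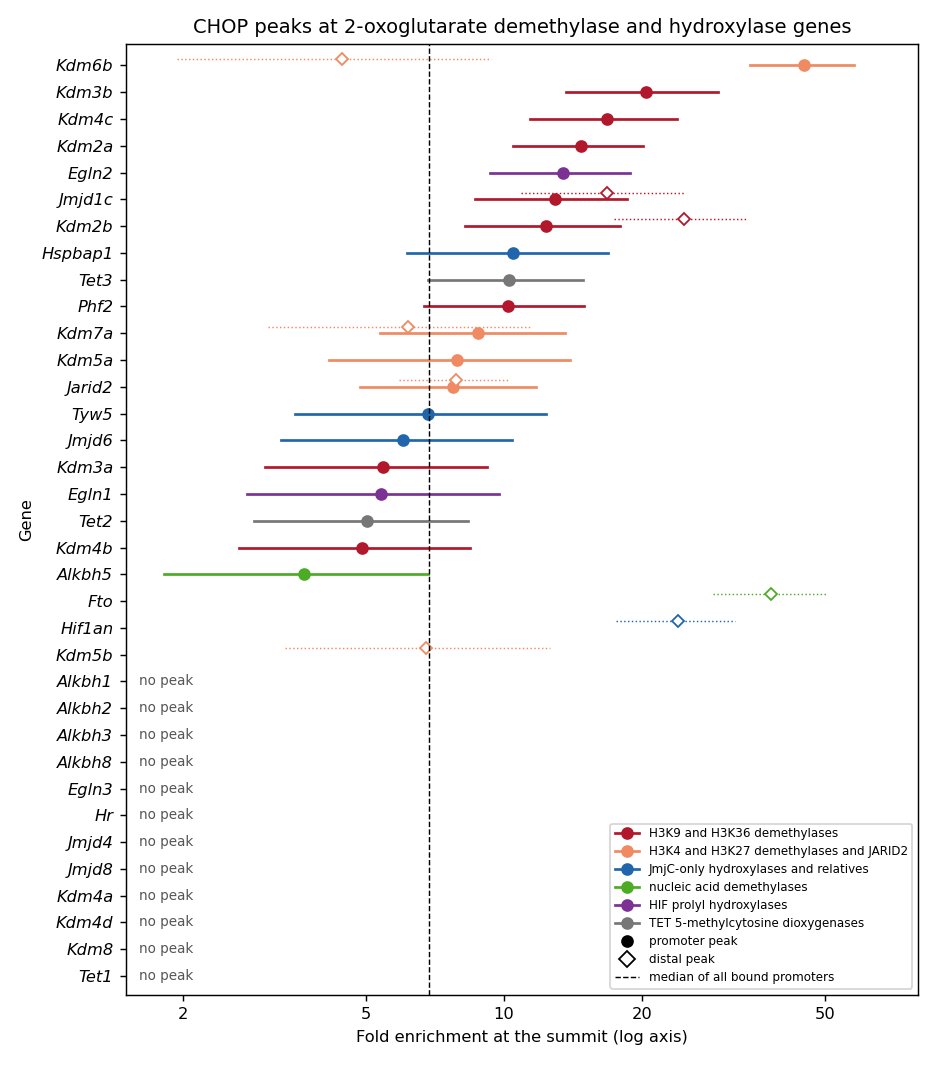
Fold enrichment at the summit (log axis) of the highest promoter peak (filled circles) and the highest distal peak (open diamonds) of each of the 35 genes, coloured by enzyme group, with 95% Poisson intervals of the summit reads as solid or dotted lines and the median of all 6100 bound promoters as a dashed line. Kdm6b stands at 45.0 with an interval above those of all other members' promoter peaks, Fto, Hif1an and Kdm5b have distal peaks only, and 12 genes have no peak.

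Among the demethylases of H3K4 and H3K27, the Kdm6b peak was the highest of all 35 genes. KDM6B (JMJD3) removes the repressive H3K27 methyl mark and is known as an inducible enzyme of inflammatory and developmental gene activation. Its peak on chromosome 11, 69414221 to 69415053, had a fold of 45.0 (34.4 to 57.8) on 59 reads over a background of 0.333 reads. That background is the lowest value in the list, which 4181 of its 14157 peaks share, but only 488 of its 6306 promoter peaks. Among the highest promoter peaks of the 20 bound members, the Kdm6b peak was the only 1 at that value. Its fold thus rests on a low background as well as on its reads. The peak ranked 164 of 14157 peaks in the authors' list, and 99.4% of all bound genes had a lower promoter fold. The interval did not overlap that of any other member's promoter peak. The composite element printed for it, the joint site of a C/EBP factor and an ATF factor, was centred 2.5 bp from the summit.

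The place of the Kdm6b peak relative to the gene depends on the annotation. In the GENCODE models used here the gene has 1 protein-coding start site, and the summit lies 878 bp upstream of it in intergenic sequence. RefSeq, on the same assembly, gives a curated start at 69416194, from which the summit lies 1641 bp downstream, so that the peak falls inside the gene and outside the 1 kb limit. RefSeq also lists predicted starts on either side of it, the nearest with the summit 194 bp upstream. A second, weak Kdm6b peak of 4.44-fold on 5 reads lay in an intron 1974 bp downstream of the GENCODE start.

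The other genes of this group had peaks of lower fold. Kdm7a, whose product acts on H3K9 and H3K27, had an 8.76-fold promoter peak (5.38 to 13.6, 18 reads) that was 1581 bp wide with its summit 843 bp inside the gene. Kdm5a, an H3K4 demethylase, had a 7.89-fold peak (4.16 to 13.9, 10 reads) at 452 bp upstream of its start and 684 bp inside the neighbouring gene Ccdc77, so position alone cannot assign it. Jarid2 had a 7.73-fold promoter peak (4.87 to 11.7, 20 reads). A Jarid2 peak deep in the gene, 28909 bp from the nearest start, had 51 reads but a fold of 7.87 (5.89 to 10.3), since its local background was 5.61 reads. Kdm5b, a paralogue of Kdm5a, had no promoter peak and a single distal peak of 6.75-fold (3.34 to 12.6, 8 reads) in an intron 5929 bp downstream of a start.

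Genes of the H3K9 and H3K36 demethylases were bound at 8 of 11 promoters (72.7%, against 27.9% of all protein-coding genes). At least 10-fold was reached at 6 of the 11 (54.5%, against 6.51%). Of all genes with a CpG ratio of at least 0.6, as at 10 of these 11, 50.4% were bound and 11.9% reached 10-fold. Kdm3b is among the 6 only through a peak upstream of its start, mostly in sequence marked as repeat. Kdm4c, which removes methyl groups from H3K9 and H3K36, had a 16.7-fold peak (11.4 to 23.8, 29 reads) with its summit 60 bp upstream of an internal start, 9379 bp into the gene. Kdm2a and Kdm2b encode CpG-binding demethylases that recognise unmethylated CpG islands. The Kdm2a peak stood at 14.7-fold (10.5 to 20.1, 37 reads), with a second peak of 5.45-fold near the outermost start. At Kdm2b the promoter peak was 12.3-fold (8.22 to 17.9, 26 reads) at an internal start, and a distal peak 11229 bp upstream of the gene was 24.6-fold (17.4 to 34.0, 35 reads). The 2 Kdm2b intervals overlapped.

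Jmjd1c, a large relative of the KDM3 H3K9 demethylases, had the most peaks of any member. A 12.9-fold peak (8.66 to 18.6, 27 reads) lay where Jmjd1c overlaps its divergent neighbour Reep3. Its summit was 266 bp downstream of the first Jmjd1c start, upstream of the next and 455 bp inside Reep3, so position alone cannot assign it. A pair of narrow peaks flanked an internal start, at 5.18-fold and 5.03-fold on 10 reads each. A further 6 distal peaks ran from 4.50-fold to 16.8-fold, of which 2 fell in introns of Reep3, and the strongest (10.9 to 24.8, 23 reads) lay in an intron 104244 bp from the first start of the gene.

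Phf2, an H3K9 demethylase with a PHD finger, had a 10.2-fold peak (6.68 to 15.0, 24 reads) that was 1186 bp wide with its summit 782 bp inside the gene. Kdm3a, a demethylase of H3K9 known as a hypoxia-induced gene, had a 5.45-fold peak (3.02 to 9.20, 12 reads), and Kdm4b, a paralogue of Kdm4c, a 4.89-fold peak (2.65 to 8.43, 11 reads). At both, the interval held the 6.86-fold median of all bound genes. Kdm4a, Kdm4d and Hr, whose product is a corepressor of skin and hair follicle, had no peak. Their nearest summits lay 35753 bp, 104090 bp and 21991 bp from a start, each nearer to another gene.

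Kdm3b, an H3K9 demethylase, had the second highest promoter fold, but its peaks were of unlike kinds. The peak of 20.4-fold (13.7 to 29.3, 27 reads) was 842 bp upstream of the start and 313 bp wide. Within 50 bp of its summit, 67.3% of the bases were marked as repeat in the assembly, with 7 tandem units of ttttt. The other peak lay at the gene itself, 437 bp downstream of the start, 1096 bp wide and free of marked repeat, at 9.43-fold (6.18 to 13.9, 24 reads). Kdm3b was the only member whose highest promoter peak had a summit window marked as repeat over at least 50% of its length.

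The HIF hydroxylases were split. EGLN proteins hydroxylate prolines of the hypoxia-inducible factors under oxygen, which marks them for degradation by the VHL ubiquitin ligase. Egln2 had a 13.5-fold peak (9.33 to 18.8, 32 reads) with its summit 27 bp downstream of a start site in the 5′ UTR, and 4 GC boxes and an E-box (CACGTG) within 50 bp of that summit. Egln1, the main oxygen sensor of most tissues, had weak peaks of 5.38-fold on 9 reads and 5.35-fold on 10 reads, the first in its coding exon and the second 41 bp downstream of the start. Egln3, which is itself known as a HIF target, had none, with its closest summit 181776 bp away. The intervals of Egln2 (9.33 to 18.8) and Egln1 (2.75 to 9.73) overlapped at their ends.

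Hif1an, which encodes the asparagine hydroxylase that blocks the transactivation domain of HIF, had no promoter peak but a pair of distal peaks. The stronger was 23.9-fold (17.6 to 31.8, 45 reads) at 44264 bp downstream of the start, and the other 9.75-fold (5.40 to 16.5, 12 reads) at 49714 bp. Both lay in sequence marked as repeat, over 79.2% and 77.2% of the bases within 50 bp of the summit. Within 50 bp of its summit the stronger one held 10 tandem units of the pentamer ttcca, of which the printed stretch shows a part. Whether reads in such repeats were placed correctly was not tested.

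JmjC enzymes that consist of little more than the catalytic domain were bound at 3 of 7 promoters (42.9%, against 27.9% of all protein-coding genes). Hspbap1, named for a protein that binds HSPB1, had a 10.5-fold peak (6.15 to 16.8, 15 reads) with its summit 68 bp inside the gene in the 5′ UTR. Tyw5, a hydroxylase of the modified base wybutosine in tRNA, had a 6.84-fold peak (3.50 to 12.4, 9 reads) whose summit also lay 204 bp inside Maip1. Jmjd6, a lysyl hydroxylase of splicing factors, had peaks of 6.03-fold (3.26 to 10.4, 11 reads) and 4.49-fold (2.36 to 7.91, 10 reads). Both were within 1 kb of a start of Mettl23, and the weaker was nearer to it (254 bp) than to a start of Jmjd6 (425 bp). Position alone cannot assign either peak. Kdm8, an arginyl hydroxylase, Jmjd4, which modifies a translation termination factor, and Jmjd8, a protein of the endoplasmic reticulum, had none. The summit nearest to Jmjd8 lay 3831 bp from its start but was nearer to Stub1, and those nearest to Jmjd4 and Kdm8 were 44181 bp and 286396 bp away.

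The FTO and ALKBH genes had the lowest share of bound promoters among the 6 groups, 16.7%, against 27.9% of all protein-coding genes. With so few genes per group, this order is a description only. Alkbh5, which removes the m6A mark from mRNA, was the only bound promoter of 6, at 3.67-fold (1.82 to 6.84, 8 reads), the lowest promoter fold of the members, and 1.28% of all bound genes had a lower one. Alkbh1, Alkbh2, Alkbh3 and Alkbh8, which repair or modify alkylated bases in DNA and tRNA, had no peak. The summit nearest to Alkbh2 lay 2357 bp from its start but was nearer to Ung, and that nearest to Alkbh8 lay 76290 bp away. For Alkbh3 it was a 21.7-fold summit at 30862 bp that was nearer to Gm27027.

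Fto, the other m6A demethylase, carried the strongest distal peak among the 35 genes. It covered chromosome 8, 91403473 to 91404150, and had a fold of 38.2 (28.6 to 50.2, 50 reads), ranking 222 of 14157 in the list. Its summit lay in an intron, 90456 bp from the first start of the gene and 13426 bp from an internal start. The stretch printed for it held 4 tandem units of gcatt and an AP-1 site centred 27 bp from the summit, and no match to the composite. Smaller Fto peaks, both 6.0-fold on 7 reads (2.86 to 11.6), lay at 91403038 to 91403247 and at 91410825 to 91411016, each with a composite element within 50 bp of the summit. With RefSeq's curated start sites, which lack the internal start, the Fto summits were beyond 50 kb from the gene's start and counted for no member.

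Tet3 and Tet2 were bound and Tet1 was not. Tet3 had a 10.2-fold peak (6.82 to 14.8, 26 reads) with its summit 56 bp upstream of an internal start, 2636 bp into the gene. Tet2, the TET enzyme known for its loss in blood cancers, had a 5.03-fold peak (2.85 to 8.35, 13 reads) 258 bp upstream of a start. The intervals of Tet3 and Tet2 overlapped. The summit nearest to a start of Tet1, at 11703 bp, belonged to Slc25a16.

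In the order of promoter folds, Kdm6b stood apart, and every other neighbouring pair had overlapping intervals. The promoter summits nearest to the 1 kb limit were those of Kdm6b at 878 bp, Kdm7a at 843 bp and Kdm3b at 842 bp, and the distal ones just outside it were those of Kdm7a at 1702 bp and Kdm6b at 1974 bp. At the 50 kb limit, the weaker Hif1an summit at 49714 bp was just inside. The summit nearest to Alkbh1, at 50295 bp, was just outside and nearer to Sptlc2.

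The position of the summits is part of what the genes were chosen on and is given as a description. The median distance was 209 bp for the 20 members and 111 bp for all 6100 bound genes. Within 100 bp of the start were 5 members (25%, against 47.2% of bound genes), and 6 members (30%, against 10.3%) had the summit more than 500 bp away. Downstream of or at the start were 9 of 20 members (45.0%, against 59.5%). The summit of the highest promoter peak fell in annotated intron at 12 of the 20 (60.0%, against 25% of bound genes) and in a 5′ UTR at 5 (25%, against 40.1%). Member promoter peaks were also wide, with a median of 595 bp where all promoter peaks had 351 bp.

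**Figure D2:**
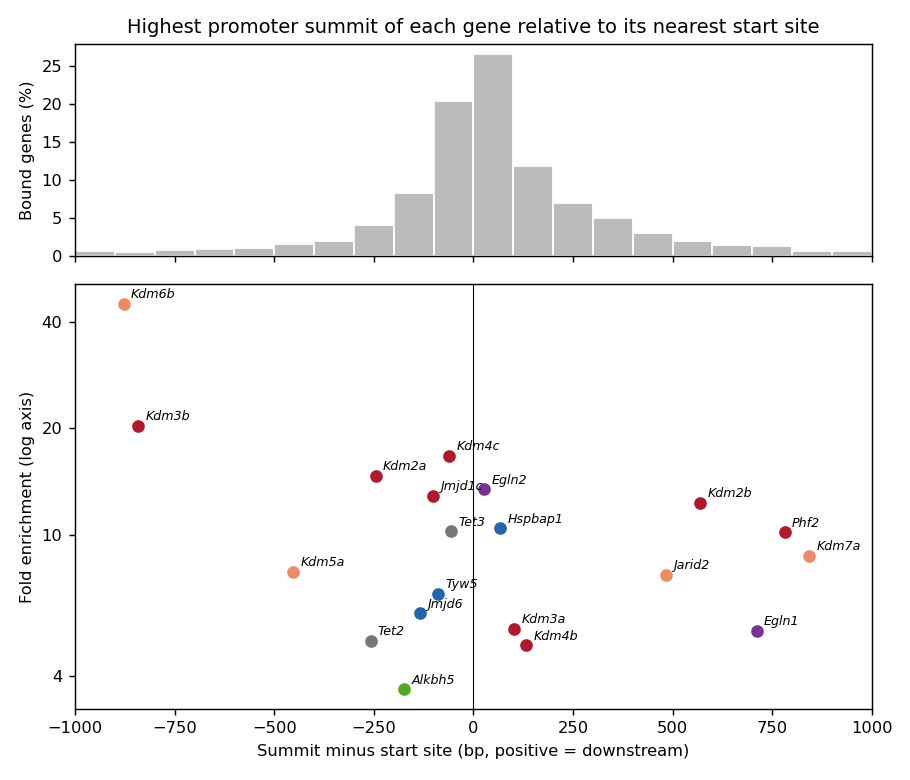
Upper panel: share of all 6100 bound genes (%) by the distance of their highest promoter summit from the nearest start site, in bins of 100 bp. Lower panel: the same distance (x axis, bp, positive downstream) against fold enrichment (log axis) for the 20 bound members, coloured by enzyme group, with Kdm6b and Kdm3b at the upstream edge and Phf2, Egln1 and Kdm7a over 700 bp inside their genes.

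The median CpG content was higher for members with a promoter peak than for those without. The ratio of observed to expected CpG within 500 bp of the most CpG-rich start site had a median of 0.932 for the 20 members with a promoter peak, 0.650 for the 15 without and 0.614 for all protein-coding genes. A ratio of at least 0.6 was found at 30 members, of which 19 (63.3%) had a promoter peak, where the share of all genes with such a start was 50.4%. Of 11 members with a ratio between 0.6 and 0.8, 3 were bound (33.6% of all genes in that range), of 15 between 0.8 and 1, 12 were bound (66.1%), and all 4 between 1 and 1.2, which are Kdm2a, Jmjd1c, Kdm7a and Egln1, were bound (88.0%). Added over the 35 members, the shares of their own ranges come to 17.5, beside the 20 with a promoter peak. The members were chosen with these peaks known, so the difference measures nothing. Whether CpG content accounts for the binding was not tested.

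At Kdm6b the ratio depended on the start site taken. The ratio at its GENCODE start was 0.172, in a range where 1.08% of all genes had a promoter peak, and it was 0.327 at the curated RefSeq start. Predicted RefSeq starts farther inside the gene had ratios of up to 0.679, at which Kdm6b would count as CpG-rich. With the GENCODE starts it was the only bound member with a ratio under 0.6, and the remaining 4 members in that range (Hr, Jmjd8, Alkbh3 and Alkbh8) had no peak.

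**Figure D3:**
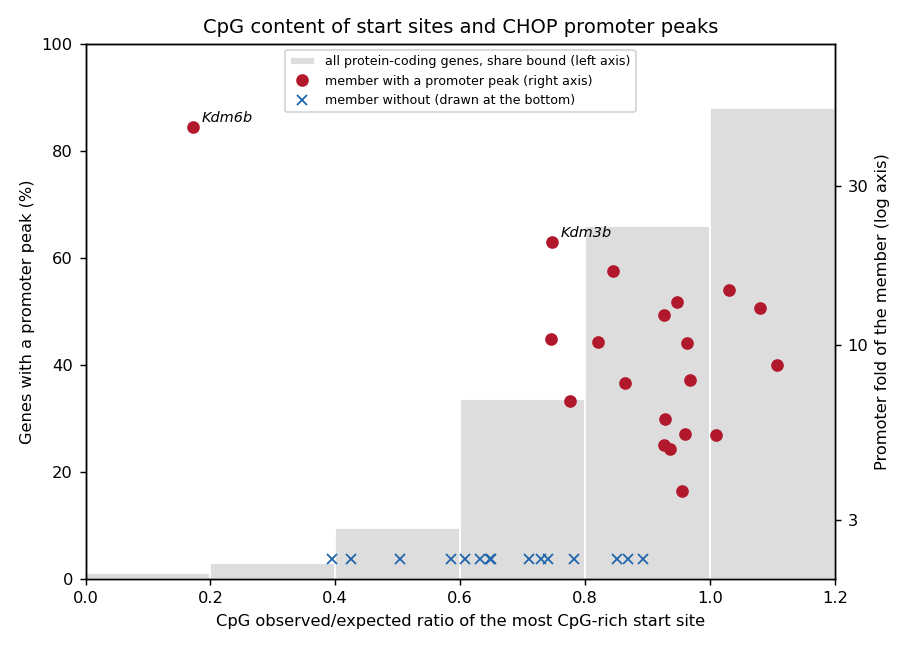
Share of all protein-coding genes with a promoter peak (grey bars, left axis, %) by the ratio of observed to expected CpG at the most CpG-rich start site, with the promoter fold of each bound member (red circles, right log axis) and the unbound members as crosses at the bottom. Bound members other than Kdm6b sit at a ratio of 0.746 or more, where the bars rise from 33.6% to 88.0%, and Kdm6b, by its GENCODE start, sits at 0.172 with the highest fold.

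The GC box was the most frequent of the elements searched for at member promoters, as it was over all promoter peaks. Each element was searched on both strands within 50 bp of the summit, and matches of different elements may overlap. Only exact matches were counted. A site that differs at 1 base, such as cgatgcaa at the Kdm2b promoter summit beside the composite TGATGNAA, was not, and the frequency of such sites was not tested. A GC box was present in 13 of 26 member promoter peaks (50%, against 45.4% of 6304 promoter peaks outside the mitochondrial genome), the ETS element CCGGAAG in 2 (7.69%, against 4.12%), an E-box in 2 (7.69%, against 5.41%) and the hypoxia response core ACGTG, which the E-box contains, in 3 (11.5%, against 10.6%). The composite TGATGNAA or the C/EBP palindrome TTGCGCAA was found in 1 of 26, the peak of Kdm6b (3.85%, against 2.03%). Counting also the relaxed form TTGCNNAA and the partial site TTGCAAT, it remained the only 1 of 26, where 4.60% of all promoter peaks had any of the 4 forms. The CRE core TGACG was found in 1 (3.85%, against 13.3%) and the CCAAT box in 0 (against 7.52%). The CRE palindrome TGACGTCA (0.857% of all promoter peaks) and the AP-1 site (1.09%) were also found in 0 of 26.

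Distal member peaks carried C/EBP forms at 3 of 17 summits, where 18.4% of the 7850 peaks outside promoters did. These were the smaller Fto peaks with the composite and the Kdm2b peak with the partial site, whose centre was 47 bp from the summit. Nearer to that Kdm2b summit lay tgatgtag, which differs from the composite at 1 base and was not counted. AP-1 sites lay at 2 of 17, the strong Fto peak and the weak intronic Kdm6b peak, against 3.96% of peaks outside promoters. Such matches describe the letters of these windows and do not show which protein was bound.

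Other enzymes of the same chemistry, and genes that act with or against the members, were described beside them. For the counts that follow, 27.9% of all protein-coding genes had a promoter peak, and 50.4% of those with a CpG ratio of at least 0.6. A promoter peak of at least 10-fold was found at 6.51% and 11.9% of them. Of 30 other genes for 2-oxoglutarate oxygenases on the list drawn up for comparison, 15 (50%) had a promoter peak, with a median of 5.30-fold, and 1 of them reached 10-fold. This was Phyhd1, a relative of phytanoyl-CoA hydroxylase, at 18.7-fold (12.3 to 27.5), followed by Ogfod2 at 8.60-fold and P3h1, a collagen prolyl hydroxylase, at 8.36-fold. Among them Kdm6a, the X-linked paralogue of Kdm6b, had a 6.84-fold promoter peak on 9 reads. The collagen prolyl hydroxylase genes P4ha1, P4ha2 and P4ha3 had no peak. Both FAD-dependent histone demethylase genes, which use another chemistry, were bound, Kdm1b at 8.51-fold and Kdm1a at 4.70-fold.

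Genes for histone lysine methyltransferases and their core subunits, which place the marks that JmjC enzymes remove, had promoter peaks at 17 of 20 (85.0%), with a median of 6.86-fold. At least 10-fold was reached at 5 of the 20 (25%), beside 28.6% of the members. Kmt2c, which methylates H3K4 at enhancers, led at 19.4-fold (14.8 to 24.9), followed by Dot1l, the H3K79 enzyme, at 15.2-fold and Ehmt1, which methylates H3K9, at 14.3-fold. All 20 had a start with a CpG ratio of at least 0.6. Writers and readers of DNA and RNA methylation were bound at 10 of 15, among them Ythdf1 at 11.4-fold, Ythdc1 at 7.91-fold and Wtap, a subunit of the m6A writer, at 7.54-fold. Mettl3, the catalytic subunit of that writer, had no peak.

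Of 10 genes for HIF subunits and their degradation, 5 were bound: Siah2, a ubiquitin ligase that targets EGLN proteins, at 29.2-fold (23.3 to 36, 84 reads), Cul2 at 18.4-fold, Hif1a at 7.72-fold, Vhl at 7.31-fold and Elob at 5.87-fold. Genes that make or use 2-oxoglutarate were bound at 9 of 17, led by Got1 at 16.5-fold, Sdha at 15.7-fold and Sdhb at 12.2-fold, the 3 that reached 10-fold. Got1 is an aspartate aminotransferase, and Sdha and Sdhb encode succinate dehydrogenase subunits. No share was tested against another, since the lists were drawn up with results of these peaks known.

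**Figure D4:**
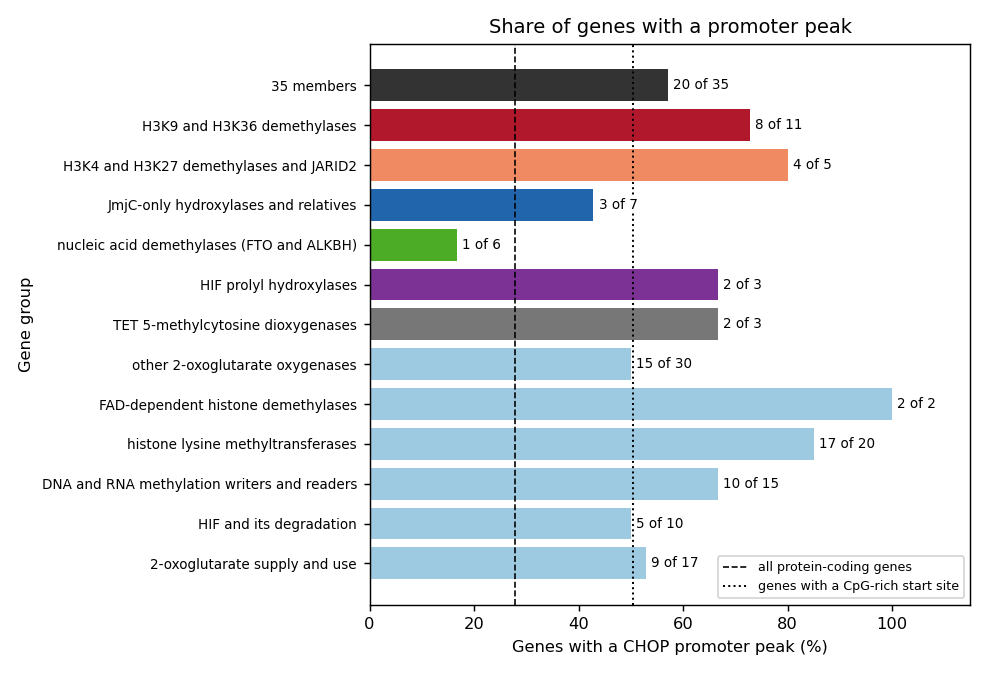
Share of genes with a CHOP promoter peak (%, bars from 0) for the 35 members, their 6 enzyme groups and the 6 comparison lists, with the count beside each bar. Vertical lines mark the 27.9% of all protein-coding genes (dashed) and the 50.4% of genes with a CpG-rich start site (dotted). FTO and ALKBH genes sit lowest at 1 of 6, and histone methyltransferases stand at 17 of 20.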

How the data were processed

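Per the labels' protocols, Bowtie placed single-end reads on mm10 with no more than 2 mismatches, reads beyond 2 at a position and strand were dropped, alignments were filtered with SAMtools 1.9 and Sambamba, and MACS2 2.1.2 called the peaks with its defaults on 1 library of pooled chromatin. The deposited file lists 14157 peaks. For each it gives the authors' fold enrichment, −log10 p, −log10 q, a score that was not used, and the offset of the summit. No input file was used here.

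Summit reads and background were solved from the authors' fold and −log10 p (Poisson tail), which gave whole numbers of reads at all 14157 summits, matching −log10 p to within 3.13e-05. Summits held 4 to 329 reads, median 11. Reads carry no molecular identifiers, and neither the library's total depth nor the Bowtie version is given in the sources used here, so intervals cover counting error only. The solver, the assignment of peaks and the motif search were tested on simulated data.

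GENCODE M21 supplied the start sites of protein-coding transcripts. Its coordinates and the GRCm38.p6 sequence are of the build of the peaks, and no peak ran past the end of an assembled chromosome. All 35 members and 94 of 95 genes on 6 comparison lists matched by symbol. Members and lists were chosen with earlier results of these data known. All members are named. Those with the 10 highest promoter folds and the 5 highest distal peaks are given with more detail, as are up to 3 genes per comparison list with the highest fold, and other listed genes were named after their values were seen. No test was run. Alternatives were peak thresholds, promoter and distal distances, start-site sets, repeat-marked and compact peaks, and motif windows, and RefSeq start sites were added after seeing the data. The software was pysam 0.24.0, scipy 1.17.1, pandas 2.3.3, numpy 2.4.6 and matplotlib 3.10.9 under Python 3.11.15.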

Additional observations from a re-analysis of the deposited data

How the results depend on the processing

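Of 50 alternative values, 48 stayed within 1.5 times the reported count or, for the median fold, between 5.76 and 14.4. Those limits are the medians of the lower and of the upper ends of the intervals of single peaks. They are not an interval for a median over genes. The alternative medians ran from 7.81 to 11.4, and staying inside so wide a range says little. The 2 values that moved came from keeping only peaks at or above the median fold of the list. With that cut 5 members had a distal peak and 19 had no peak, in place of 8 and 12. The distal share of all genes fell as well, from 18.0% to 10.8%. This follows from the removal of weaker peaks. Members with a promoter peak numbered 14 to 21 across the alternatives. The 14 came from the cut at the median fold, where 14.7% of all genes had a promoter peak. The 21 came from a promoter limit of 3 kb, where 30.3% did. A promoter limit of 500 bp left 16 (25.8% of all genes), without Kdm2b, Kdm6b, Kdm7a and Phf2. The outermost start site alone also left 16 (25.3% of all genes), without Kdm2b, Kdm4c, Alkbh5 and Tet3. RefSeq curated start sites, an alternative chosen after seeing the data, gave 19 (27.9% of all genes) without Kdm6b, with a median fold of 7.89. No paired analysis was possible because no result comes from a test and the immunoprecipitated and input libraries form no replicate pairs. Of member promoter peaks, 30.8% had 10 or fewer reads at the summit, as did 30.4% of all promoter peaks, and intervals at such peaks are wide.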
